A study of Drosophila melanogaster with 24 samples.

Results

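The genes described here are the alpha, beta and gamma tubulin genes of Drosophila melanogaster, read in neuroblasts, the stem cells that divide to build the fly brain. They were chosen by name, with earlier results of these data known: the rows of 10 named genes among the 15339 genes counted, 4 alpha, 4 beta and 2 gamma genes. No other row of the deposited table was named as an alpha, beta or gamma tubulin. RNA was sequenced from 24 libraries in 8 groups of 3. Neuroblasts of the antennal lobe (AL), the olfactory centre, were taken from larvae at 24, 36, 50 and 84 h after hatching. Neuroblasts of the mushroom body (MB), the learning centre for smell, were taken from larvae at 24, 50 and 84 h and from pupae at 36 h. Per the labels, each library pooled about 100 GFP-positive cells (89 to 121 were recorded), sorted 10 at a time after about 30 brains had been digested for 30 min, from animals grown at 25 °C and staged to within 2 h. The pool is therefore the replicate, and no mutant or treatment entered the groups used here.

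Microtubules are polymers of paired alpha- and beta-tubulin, and gamma-tubulin, held in a ring-shaped complex, starts new ones. In a dividing neuroblast they form the spindle, which lines up with the cell's polarity so that daughters of unequal size and fate arise. Flies carry several genes for each class, and these isotypes differ in where and when they are used. No sequences are printed, since the sources used here held none for these genes.

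Gene counts per library were 6.06 to 9.27 M (mega-counts) in AL and 3.15 to 5.83 M in MB, and 10168 to 11627 genes were detected. The limit that a count of 0 allows (3 counts) was between 0.324 and 0.952 counts-per-million (CPM) and covers counting error only. Neuroblast markers summed to 1296 to 2361 CPM, with none of the 5 at 0 in any group. Markers of ganglion mother cells and newborn neurons, the progeny of neuroblasts, summed to 918 to 2459 CPM. That sum was highest in AL at 50 h (1896 to 2459 CPM), and its part in the tubulin levels was not tested. The 5 MB lineage markers summed to 448 to 736 CPM in MB libraries and 26.9 to 93.5 CPM in AL libraries. The 5 AL lineage markers did not separate the lineages by their sum, at 219 to 456 CPM in AL libraries and 321 to 526 CPM in MB libraries. Of these, ems had 34.6 to 163 CPM in AL libraries and 0 to 1.79 CPM in MB libraries, whereas oc had 1.08 to 97.9 CPM in AL libraries and 201 to 404 CPM in MB libraries. Neuron markers summed to 352 to 674 CPM and glial markers to 315 to 626 CPM. The glial factor repo had 0 to 6.47 CPM, so nearly all of the glial sum came from the other markers of that list. The part of neuronal or glial RNA in these pools was not tested. In pools such as these, fewer cells of a type and less RNA per cell cannot be told apart.

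Tubulin RNA was dominated by an alpha and a beta gene. In deposited TPM, which divides by gene length and so allows genes to be compared, alphaTub84B averaged 3386 over the 24 libraries and betaTub56D 3153. They ranked 23 and 27 among 15334 genes. Both are the broadly expressed genes of their class in the fly. The next were alphaTub84D at 578 TPM, betaTub60D at 145 TPM, gammaTub23C at 107 TPM, gammaTub37C at 32.9 TPM and alphaTub67C at 18.6 TPM. The lowest were betaTub85D at 4.11 TPM, betaTub97EF at 2.59 TPM and alphaTub85E at 0.52 TPM. Together the 10 genes took 0.374% to 0.741% of gene counts.

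Of the 10 genes, 9 passed the filter on low counts and entered the test, which alphaTub85E did not. Values below are CPM scaled between libraries by the trimmed mean of M-values (TMM), for replicates 1, 2 and 3. Fold changes with their standard errors (SE) and adjusted p-values come from edgeR's quasi-likelihood test, adjusted by Benjamini-Hochberg over 10324 genes and called under 0.05. The clearest change was in betaTub60D, which rose with larval age in both lineages and was higher in AL at every shared age. The gene gammaTub23C also rose between 24 and 84 h in both lineages. The gene gammaTub37C rose between these ages in MB, where it was the higher of the lineages. Both gamma calls in MB were lost with some single libraries left out, and with scaling by spike-in RNA and cell number. At 50 and 84 h alphaTub84B was lower in AL than in MB, calls that this scaling removed, while the call averaged over 24, 50 and 84 h held. It was not called at 24 h, and its highest group mean was in AL at 36 h (3035 CPM).

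**Figure D1:**
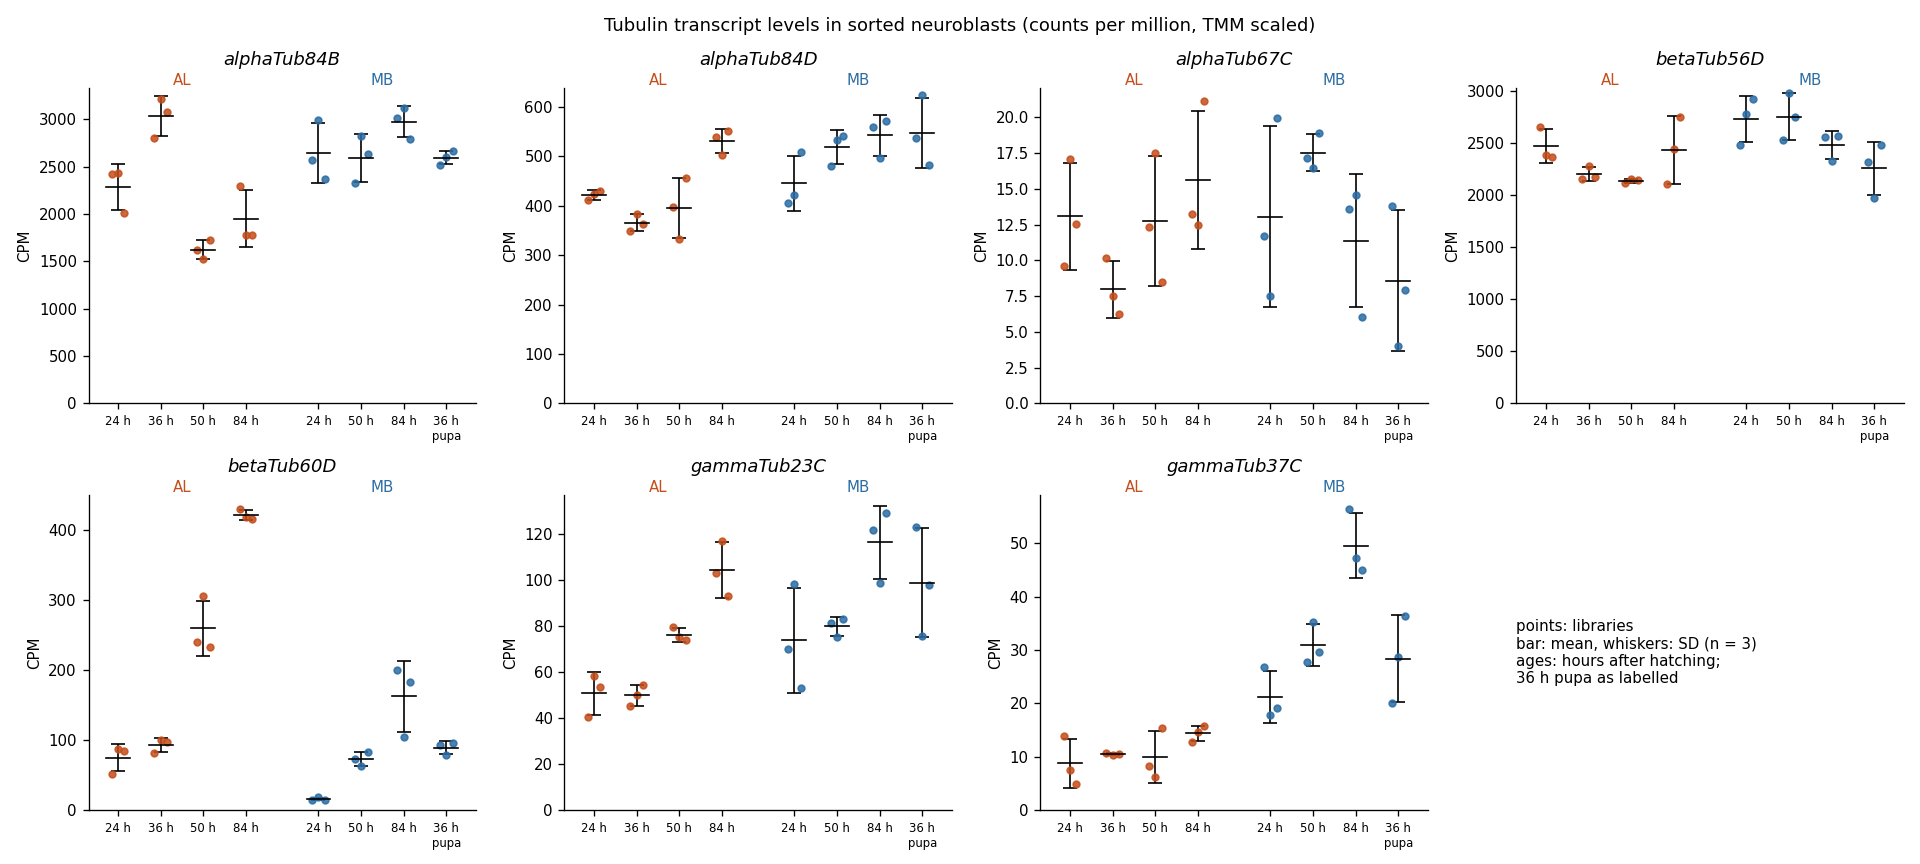
Level of the 7 tubulin genes with the highest mean TPM in every library, in CPM on linear axes from 0, against group, with AL and MB libraries as separate colours, short bars for group means and whiskers for SD (n = 3). Points of betaTub60D climb between 24 and 84 h in both lineages, while those of betaTub56D stay between 1975 and 2974 CPM in every library.

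Among the alpha genes, alphaTub84B (FBgn0003884, dm3 chromosome 3R, 2912321 to 2914561, + strand) and alphaTub84D (FBgn0003885, 3R, 3356478 to 3358454, + strand) encode near-identical, broadly used proteins. How reads that match both were counted is not given in the sources used here, so the division between them is uncertain. In AL, alphaTub84B had 2420, 2431 and 2011 CPM in 24 h larvae, 2807, 3217 and 3081 CPM in 36 h larvae, 1621, 1528 and 1726 CPM in 50 h larvae, and 2300, 1774 and 1778 CPM in 84 h larvae. Every library at 36 h was above, and every library at 50 h below, all AL libraries of the other ages. The change over the 4 AL ages was called for alphaTub84B (adjusted p = 5.2e-08), and the sum of both genes was called too (adjusted p = 1.5e-06). The call was lost when libraries were scaled by spike-in RNA and cell number (adjusted p = 0.23). In MB it had 2566, 2990 and 2369 CPM in 24 h larvae, 2324, 2826 and 2636 CPM in 50 h larvae, 3016, 3120 and 2795 CPM in 84 h larvae, and 2522, 2598 and 2663 CPM in the pupa. These libraries overlapped between 24 and 50 h, and the change over MB ages missed the threshold (adjusted p = 0.41). With spike-in and cell number scaling the MB change was called (adjusted p = 0.0073).

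Levels of alphaTub84D lay between 333 and 623 CPM in every library. In AL they were 411, 423 and 429 CPM in 24 h larvae, 349, 383 and 363 CPM in 36 h larvae, 397, 333 and 456 CPM in 50 h larvae, and 539, 503 and 550 CPM in 84 h larvae. The AL libraries at 84 h lay above all others of that lineage, and the change over AL ages was called (adjusted p = 0.0061). In MB they were 405, 422 and 509 CPM in 24 h larvae, 480, 534 and 542 CPM in 50 h larvae, 559, 496 and 572 CPM in 84 h larvae, and 537, 623 and 481 CPM in the pupa. MB libraries of neighbouring ages overlapped throughout, and the change over MB ages was not called (adjusted p = 0.24). Spike-in and cell number scaling did call that change (adjusted p = 0.029).

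The other alpha genes were low. The gene alphaTub67C (FBgn0087040, 3L, 9674368 to 9676470, + strand) is the maternal alpha-tubulin of the fly ovary and early embryo. Its group means in AL were 13.1 ± 3.74 CPM at 24 h, 7.97 ± 1.98 CPM at 36 h, 12.8 ± 4.54 CPM at 50 h and 15.6 ± 4.81 CPM at 84 h. In MB they were 13.1 ± 6.34 CPM at 24 h, 17.5 ± 1.29 CPM at 50 h, 11.4 ± 4.66 CPM at 84 h and 8.58 ± 4.91 CPM in the pupa (SD, n = 3). It was counted in every library and called in none of the comparisons. The gene alphaTub85E (FBgn0003886, 3R, 5556943 to 5558987, − strand), known from chordotonal organs, muscle and testis of flies, had 44 counts in all. Of these, 24 came from replicate 1 of MB at 84 h and 9 from replicate 1 of AL at 84 h. The other 22 libraries had 0 to 4 counts. Without the filter, it was not called between 84 and 24 h in MB (adjusted p = 0.099).

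Among the beta genes, betaTub56D (FBgn0003887, 2R, 15334824 to 15337076, − strand) is the main beta-tubulin of the fly embryo and nervous system. In AL it had 2655, 2387 and 2365 CPM in 24 h larvae, 2151, 2282 and 2173 CPM in 36 h larvae, 2117, 2150 and 2142 CPM in 50 h larvae, and 2104, 2442 and 2750 CPM in 84 h larvae. In MB it had 2483, 2777 and 2921 CPM in 24 h larvae, 2524, 2974 and 2752 CPM in 50 h larvae, 2552, 2328 and 2570 CPM in 84 h larvae, and 2313, 1975 and 2479 CPM in the pupa. Libraries of 84 and 24 h overlapped in both lineages, and neither the AL ages (adjusted p = 0.29) nor the MB ages (adjusted p = 0.10) differed by the test. The MB ages were called with spike-in and cell number scaling (adjusted p = 0.022).

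The gene betaTub60D (FBgn0003888, 2R, 20193405 to 20200626, + strand) encodes the beta-tubulin known from developing muscle and from ecdysone-treated fly cell lines. In AL it had 52.4, 88.1 and 84.8 CPM in 24 h larvae, 81.9, 100.1 and 98.0 CPM in 36 h larvae, 240.6, 305 and 233 CPM in 50 h larvae, and 429.5, 418 and 416 CPM in 84 h larvae. Libraries at 24 and 36 h overlapped, and each later age lay wholly above them and wholly apart from the other. In MB it had 14.6, 18.2 and 14.96 CPM in 24 h larvae, 72.5, 62.7 and 82.7 CPM in 50 h larvae, 199.6, 105 and 183 CPM in 84 h larvae, and 93.3, 79.0 and 95.4 CPM in the pupa. The 3 larval ages of MB did not overlap, and the pupal libraries overlapped those of 50 h. The change over ages was called in AL (adjusted p = 1.4e-14) and in MB (adjusted p = 3.8e-15).

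Ordered by group mean, betaTub60D was highest in AL at 84 h (421 ± 7.11 CPM), then AL at 50 h (260 ± 39.8), MB at 84 h (162 ± 50.3), AL at 36 h (93.3 ± 9.97), MB in the pupa (89.2 ± 8.94), AL at 24 h (75.1 ± 19.7), MB at 50 h (72.6 ± 9.96) and MB at 24 h (15.9 ± 1.98; SD, n = 3). The 4 groups between 72.6 and 93.3 CPM overlapped with their neighbours in that order, and all other neighbours were separate. Muscle markers were read because this gene is known from muscle. Their sum did not follow that order, and was 22.1 to 54.7 CPM in AL at 24 h, 51.2 to 97.2 CPM at 36 h, 158 to 196 CPM at 50 h and 40.9 to 77.5 CPM at 84 h. In MB it was 60.8 to 116 CPM at 24 h, 61.7 to 94.4 CPM at 50 h, 76.1 to 136 CPM at 84 h and 60.01 to 105 CPM in the pupa. Mlc1 was at 0 in AL at 24 h and Act57B at 0 in AL at 36 h. Most of the sum came from sls and bt, and single markers differed from it. In MB, mean Act57B was 8.71 CPM at 24 h, 12.4 CPM at 50 h, 29.3 CPM at 84 h and 9.19 CPM in the pupa, and mean Mhc was 3.52, 7.94, 19.6 and 10.7 CPM in the same order, both highest at 84 h as betaTub60D was. In AL, mean Act57B stayed between 0 and 0.37 CPM, and Mhc was highest at 50 h (12.2 CPM) and had 7.11 CPM at 84 h. The part of muscle RNA in the levels of betaTub60D was not tested.

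The remaining beta genes were near the counting limit in many libraries. The gene betaTub85D (FBgn0003889, 3R, 5234105 to 5236004, − strand), the testis beta-tubulin of the sperm tail, had 0 to 11.7 CPM, highest in replicate 1 of AL at 50 h. Its 3 libraries at that age had 82, 44 and 5 counts, a spread as wide as that between groups. The sum of 7 germline and testis markers was 34.1 to 47.9 CPM in AL at 24 h, 33.8 to 50.8 CPM at 36 h, 57.0 to 70.6 CPM at 50 h and 68.9 to 129 CPM at 84 h. In MB that sum was 49.2 to 65.9 CPM at 24 h, 131 to 138 CPM at 50 h, 98.7 to 143 CPM at 84 h and 99.1 to 111 CPM in the pupa. In both lineages it was thus higher in every 84 h library than in any 24 h library, while betaTub85D was called in no comparison. The gene betaTub97EF (FBgn0003890, 3R, 23792730 to 23814089, − strand), a minor fly beta-tubulin, had 2.26, 5.20 and 5.83 CPM in MB at 84 h and 7.02, 3.03 and 2.26 CPM in the pupa. It had 1.23, 1.72 and 0.76 CPM in AL at 84 h, below every MB library of that age, but no comparison called it.

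Among the gamma genes, gammaTub23C (FBgn0260639, 2L, 2972892 to 2974862, + strand) is the gamma-tubulin of somatic cells. It overlaps the end of CG9641, on the other strand, by 4 bases, and that neighbour had 651 counts against its own 11546. In AL it had 40.4, 58.2 and 53.4 CPM in 24 h larvae, 45.3, 50.1 and 54.5 CPM in 36 h larvae, 79.6, 75.2 and 73.8 CPM in 50 h larvae, and 103, 117 and 92.9 CPM in 84 h larvae. The 24 and 36 h libraries overlapped, and those of 50 and 84 h each stood apart (adjusted p over AL ages = 0.00014). In MB it had 69.8, 98.2 and 53.0 CPM in 24 h larvae, 81.1, 75.2 and 82.9 CPM in 50 h larvae, 122, 98.5 and 129 CPM in 84 h larvae, and 123, 75.6 and 97.5 CPM in the pupa. Every MB library at 84 h was above every one at 24 and 50 h, but the change over MB ages missed the threshold (adjusted p = 0.059). It passed with DESeq2 (adjusted p = 0.021) and with spike-in and cell number scaling (adjusted p = 0.0055). It also passed with the libraries left out that are named below for the MB count.

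The gene gammaTub37C (FBgn0010097, 2L, 19183970 to 19185726, − strand) is the gamma-tubulin of the ovary and early embryo in flies. In AL it had 13.9, 7.53 and 4.98 CPM in 24 h larvae, 10.7, 10.3 and 10.6 CPM in 36 h larvae, 8.30, 6.29 and 15.5 CPM in 50 h larvae, and 12.8, 14.7 and 15.7 CPM in 84 h larvae. In MB it had 26.9, 17.8 and 19.2 CPM in 24 h larvae, 27.8, 35.3 and 29.7 CPM in 50 h larvae, 56.5, 47.2 and 45.0 CPM in 84 h larvae, and 20.1, 28.7 and 36.4 CPM in the pupa. Every MB library was above every AL library, and among the AL ages 36 and 84 h alone were separate. It was not called over AL ages (adjusted p = 0.48) or over all MB ages (adjusted p = 0.065; DESeq2 adjusted p = 0.013). Over MB ages, spike-in and cell number scaling called gammaTub37C (adjusted p = 0.029). The germline and testis sum given above was likewise higher at 84 than at 24 h in both lineages, and its part in the levels of this gene was not tested.

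How tubulin genes changed with age was tested over all ages and between 84 and 24 h. Over the 4 ages, 4 of the 9 tubulin genes tested were called in AL, against 15.3% of all genes tested. In MB, 1 was called, against 17.7%. Settings moved the MB count, to 3 with DESeq2 and 6 with spike-in and cell number scaling. That scaling also raised the calls over all genes in MB from 1829 to 3866, and the all-gene count with DESeq2 is not reported here. The tubulin count became 2 without replicate 2 of MB at 24 h, replicate 2 of MB at 84 h or replicate 2 of the pupa. These p-values measure the spread between libraries, since the labels do not say that the pools of a group came from separate cultures.

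In AL, 84 h against 24 h, 2 of the 9 genes rose and none fell, against 12.4% of all genes called, 5.67% higher and 6.7% lower. In betaTub60D the level was 5.61 times that at 24 h (log2 fold change 2.49 ± 0.20, adjusted p = 4.8e-13). In gammaTub23C it was 2.06 times (1.04 ± 0.21, adjusted p = 0.00036). Libraries of 84 and 24 h did not overlap for these 2 genes or for alphaTub84D, against 25.8% of all genes, but alphaTub84D missed the threshold (0.33 ± 0.12, adjusted p = 0.070). That gene was called by limma (0.41, adjusted p = 0.013) and with spike-in and cell number scaling (0.94, adjusted p = 0.015). For alphaTub84B the log2 fold change was −0.23 ± 0.11 (adjusted p = 0.16), and it passed, at −0.35, without replicate 1 of AL at 84 h (adjusted p = 0.043). For gammaTub37C it was 0.70 ± 0.37 (adjusted p = 0.23), and it passed, at 1.21, without replicate 1 of AL at 24 h (adjusted p = 0.047). With spike-in and cell number scaling gammaTub37C passed too, at 1.31 (adjusted p = 0.036). The all-gene median on that scaling was 0.59, and relative to it alphaTub84D was at 0.36 and gammaTub37C at 0.73. With TMM scaling the value for betaTub56D was −0.02 ± 0.10. The median over the 9 genes was 0.32, against −0.02 over all genes tested.

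In MB, 84 h against 24 h, 3 genes rose and none fell, against 14.4% of all genes called, 5.81% higher and 8.63% lower. The level of betaTub60D was 10.2 times that at 24 h (log2 fold change 3.35 ± 0.21, adjusted p = 4.6e-16). That of gammaTub37C was 2.33 times (1.22 ± 0.36, adjusted p = 0.017), and that of gammaTub23C 1.58 times (0.66 ± 0.21, adjusted p = 0.025). For the same 3 genes the libraries of 84 and 24 h did not overlap, against 32% of all genes. Values were 0.28 ± 0.12 for alphaTub84D, 0.17 ± 0.11 for alphaTub84B and −0.14 ± 0.10 for betaTub56D, none of them called by edgeR. Limma called alphaTub84D (0.50, adjusted p = 0.0023) and alphaTub84B (0.39, adjusted p = 0.022), where its all-gene median was 0.24. The median over the 9 genes was 0.28, against 0.05 over all genes.

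The gamma calls in MB were the weaker ones. With replicate 1 or 3 of MB at 24 h, or replicate 1 or 3 of MB at 84 h, left out, gammaTub23C lost its call (log2 0.47 to 0.62, adjusted p = 0.079 to 0.19). The call of gammaTub37C was lost without replicate 2 or 3 of MB at 24 h or replicate 1 of MB at 84 h (log2 1.11 to 1.15, adjusted p = 0.072 to 0.077). Both were lost with spike-in and cell number scaling, at 0.38 and 1.00, which left 1 tubulin gene called. That scaling put the all-gene median at 0.59 in AL and at −0.18 in MB. On it betaTub60D was still called, at 3.09 in AL and 3.08 in MB, which is 2.51 and 3.26 relative to those medians.

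The same change was set against itself in the lineages by an interaction term, AL minus MB. By edgeR none of the 9 genes was called, against 4.71% of all genes, 2.93% higher and 1.78% lower, and 2 had an unadjusted p under 0.05. They were betaTub60D (log2 difference −0.86 ± 0.28, adjusted p = 0.060) and alphaTub84B (−0.40 ± 0.15, adjusted p = 0.12). DESeq2 called betaTub60D (−0.91, adjusted p = 0.043), limma called none, and edgeR without the filter called betaTub60D (−0.84, adjusted p = 0.033). It was also called by edgeR without replicate 1 of AL at 24 h (−1.06, adjusted p = 0.011) or replicate 2 of MB at 84 h (−1.08, adjusted p = 0.0073). The gene alphaTub84B was called without replicate 1 of AL at 84 h (−0.54, adjusted p = 0.027). With spike-in and cell number scaling the difference for betaTub60D was 0.01 ± 0.47 (adjusted p = 0.996), where the all-gene median was 0.81, so that it was −0.79 relative to that median. A larger rise of betaTub60D in MB was therefore not shown: its call depended on the setting, and the difference itself on the scaling.

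**Figure D2:**
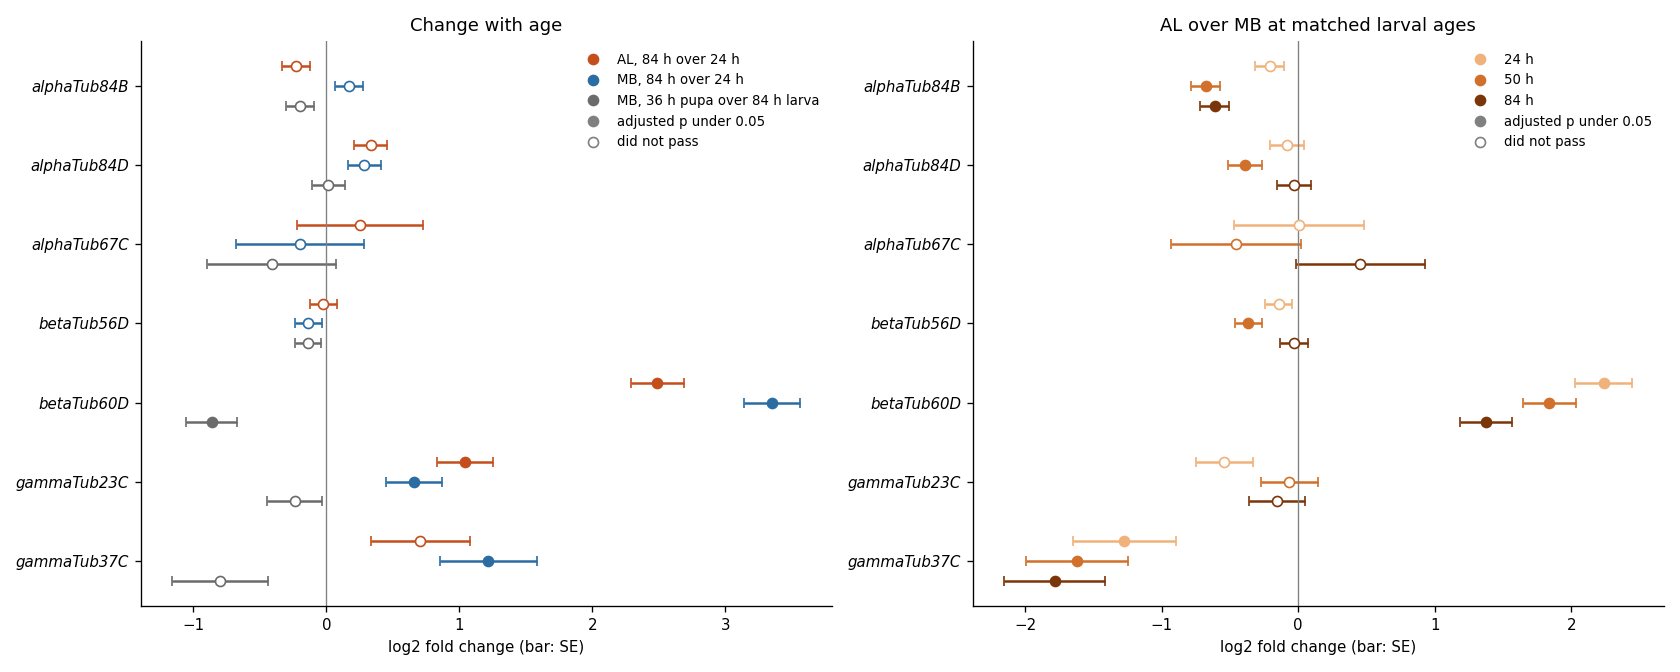
Log2 fold changes of the 7 tubulin genes with the highest mean TPM, for change with age and for AL over MB at each shared age, with SE as bars and filled points for an adjusted p under 0.05. The value of betaTub60D is above 2 for 84 h against 24 h in both lineages, and it is above 1 for AL against MB at each shared age.

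In the MB pupa at 36 h against the MB larva at 84 h, 1 of the 9 genes fell and none rose, against 2.61% of all genes called, 1.88% lower and 0.726% higher. It was betaTub60D (log2 fold change −0.86 ± 0.19, adjusted p = 0.0037), so that the 84 h level was 1.82 times the pupal level. Pupal libraries lay below all 84 h libraries for betaTub60D, alphaTub84B and gammaTub37C, against 18.2% of all genes without overlap in either direction. For alphaTub84B the change was −0.20 ± 0.11 (adjusted p = 0.51), and for gammaTub37C −0.80 ± 0.36 (adjusted p = 0.36). The call of betaTub60D was lost without replicate 1 of MB at 84 h (−0.69, adjusted p = 0.078) or replicate 2 of the pupa (−0.76, adjusted p = 0.051), and with spike-in and cell number scaling (−0.74, adjusted p = 0.49). The median was −0.24 over the 9 genes and −0.02 over all.

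Between lineages, averaged over 24, 50 and 84 h, 1 tubulin gene was higher and 3 were lower in AL than in MB, against 21.9% of all genes called, 11.2% higher and 10.7% lower. The higher one was betaTub60D (log2 fold change 1.82 ± 0.11, adjusted p = 5.5e-17). The lower ones were gammaTub37C (−1.56 ± 0.22, adjusted p = 2.1e-07), alphaTub84B (−0.50 ± 0.06, adjusted p = 1.7e-08) and betaTub56D (−0.18 ± 0.06, adjusted p = 0.021). The call of betaTub56D was lost without the filter (adjusted p = 0.068), in the fit to only the groups compared (−0.17, adjusted p = 0.05005) and in each of 5 fits that left out a library: replicate 1 of AL at 84 h, replicate 2 or 3 of MB at 24 h, replicate 2 of MB at 50 h or replicate 3 of MB at 84 h (−0.14 to −0.16). It missed for alphaTub84D (−0.17 ± 0.07, adjusted p = 0.090) and gammaTub23C (−0.25 ± 0.12, adjusted p = 0.13). Spike-in and cell number scaling put the all-gene median at −0.33, and with it these 6 genes were all called, betaTub60D at 1.51 and the other 5 between −1.86 and −0.47. With the counts of alphaTub84B and alphaTub84D summed, the value was −0.44 (adjusted p = 6.4e-08). The median was −0.25 over the 9 genes and −0.02 over all.

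At the separate ages, betaTub60D in AL was 4.72 times its MB level at 24 h (log2 2.24 ± 0.21, adjusted p = 3.2e-11), 3.57 times at 50 h (1.84 ± 0.19, adjusted p = 1.5e-09) and 2.59 times at 84 h (1.38 ± 0.19, adjusted p = 7.9e-07). AL and MB libraries did not overlap at any of the 3 ages. For gammaTub37C the MB level was 2.42 times that in AL at 24 h (−1.27 ± 0.37, adjusted p = 0.019), 3.09 times at 50 h (−1.62 ± 0.37, adjusted p = 0.0020) and 3.44 times at 84 h (−1.78 ± 0.37, adjusted p = 0.00081). The 24 h call was lost without replicate 2 or 3 of AL or replicate 1 of MB at that age (−1.17 to −0.99).

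At 24 h these were the 2 tubulin genes called, against 10.8% of all genes, 4.75% higher and 6.1% lower, and their libraries did not overlap, against 23.9%. At 50 h, 5 were called, against 11.3% of all genes, 6.39% higher and 4.94% lower, since alphaTub84B (−0.68 ± 0.11, adjusted p = 9.2e-06), betaTub56D (−0.36 ± 0.10, adjusted p = 0.012) and alphaTub84D (−0.39 ± 0.12, adjusted p = 0.032) were lower in AL too. For all 5 the libraries of the lineages did not overlap, against 27.7% of all genes. At 84 h, 3 were called, against 7.67%, 4.42% higher and 3.25% lower, the third being alphaTub84B (−0.61 ± 0.11, adjusted p = 7.3e-05). Those 3 and betaTub97EF did not overlap at 84 h, against 25.6% of all genes. The alphaTub84D call at 50 h was lost without replicate 1 or 2 of AL or replicate 2 or 3 of MB at that age (−0.39 to −0.28), and that of betaTub56D without replicate 2 of MB (−0.28). The all-gene median was, with spike-in and cell number scaling, −1.05 at 24 h, 0.35 at 50 h and −0.27 at 84 h. That scaling left betaTub60D as the only tubulin call at 50 h (2.18) and put betaTub56D there at 0.01, a change of sign. At 84 h it removed the call of alphaTub84B (−0.81, adjusted p = 0.11).

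The makeup of each class was read from TPM, as the share of a gene in its class within a library, which does not depend on how libraries are scaled to each other. The shares and ratios tested were added after the values were seen, and the adjustment over 12 tests does not cover that choice. Their tests reread the same libraries, so they are not support apart from the calls above. The beta share of betaTub60D was 2.21 ± 0.68% in 24 h larvae, 3.02 ± 0.26% in 36 h larvae, 8.18 ± 1.10% at 50 h and 11.4 ± 1.53% at 84 h in AL. In MB it was 0.428 ± 0.053% in 24 h larvae, 1.92 ± 0.34% at 50 h, 4.54 ± 1.17% at 84 h and 2.83 ± 0.066% in the pupa (SD, n = 3). It differed over ages in each lineage (exact permutation test, p = 6.5e-05, the smallest the arrangements allow, adjusted over 12 such tests p = 0.00039). AL was above MB by 4.98 percentage points over the matched ages (exact two-sided permutation within ages, p = 0.00025, the smallest possible, adjusted p = 0.001). Nearly all the rest was betaTub56D, at 88.5% to 97.7% in AL and 95.2% to 99.4% in MB as group means.

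The alpha share of alphaTub84D was 14.04 ± 1.55% in 24 h larvae, 9.62 ± 0.24% in 36 h larvae, 17.5 ± 1.44% at 50 h and 19.4 ± 2.14% at 84 h in AL, with the 36 h libraries below all others. It differed over AL ages (exact permutation p = 0.00045, adjusted p = 0.0014). In MB it was 13.1 ± 2.51% in 24 h larvae, 14.98 ± 0.62% at 50 h, 13.9 ± 1.52% at 84 h and 15.7 ± 1.87% in the pupa, without a difference by the test (exact permutation p = 0.35, adjusted p = 0.38). AL was above MB by 3.04 points (exact permutation p = 0.0065, adjusted p = 0.0097), and these shares carry the uncertainty of near-identical genes. The difference was 0.98 points at 24 h, where libraries overlapped, 2.57 at 50 h and 5.57 at 84 h. The level of alphaTub84D itself was not higher in AL over these ages (log2 −0.17), while that of alphaTub84B was lower (log2 −0.50).

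The gamma share of gammaTub37C was 16.9 ± 9.85% in 24 h larvae, 19.4 ± 1.56% in 36 h larvae, 12.9 ± 5.62% at 50 h and 13.7 ± 2.14% at 84 h in AL. In MB it was 25.6 ± 7.43% in 24 h larvae, 30.6 ± 3.64% at 50 h, 32.7 ± 3.77% at 84 h and 25.2 ± 8.26% in the pupa. AL was below MB by 15.2 points (AL minus MB −15.2, exact permutation p = 0.001, adjusted p = 0.0024). Libraries of the lineages overlapped at 24 h (−8.75 points) and not at 50 or 84 h. No difference over ages was found in AL (exact permutation p = 0.53) or MB (exact permutation p = 0.34), so the rise of its level in MB came without a detected change in its share.

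Total alpha over total beta, as TPM, was 1.12 ± 0.087 in 24 h larvae, 1.57 ± 0.065 in 36 h larvae, 0.904 ± 0.080 at 50 h and 0.959 ± 0.23 at 84 h in AL (exact permutation p = 0.0049, adjusted p = 0.0083). In MB it was 1.18 ± 0.14 in 24 h larvae, 1.16 ± 0.023 at 50 h, 1.42 ± 0.14 at 84 h and 1.42 ± 0.19 in the pupa (exact permutation p = 0.085, adjusted p = 0.11). AL minus MB was −0.258 (exact permutation p = 0.0027, adjusted p = 0.0055). For this ratio the lineages overlapped at 24 h (−0.062) and not at 50 or 84 h. Gamma-tubulin was 1.12 ± 0.12% of all tubulin TPM at 24 h, 1.05 ± 0.063% in 36 h larvae, 1.94 ± 0.061% at 50 h and 2.23 ± 0.29% at 84 h in AL. In MB it was 1.61 ± 0.32% in 24 h larvae, 1.87 ± 0.13% at 50 h, 2.68 ± 0.24% at 84 h and 2.29 ± 0.29% in the pupa, so that 84 h lay above 24 h in every library of both lineages.

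**Figure D3:**
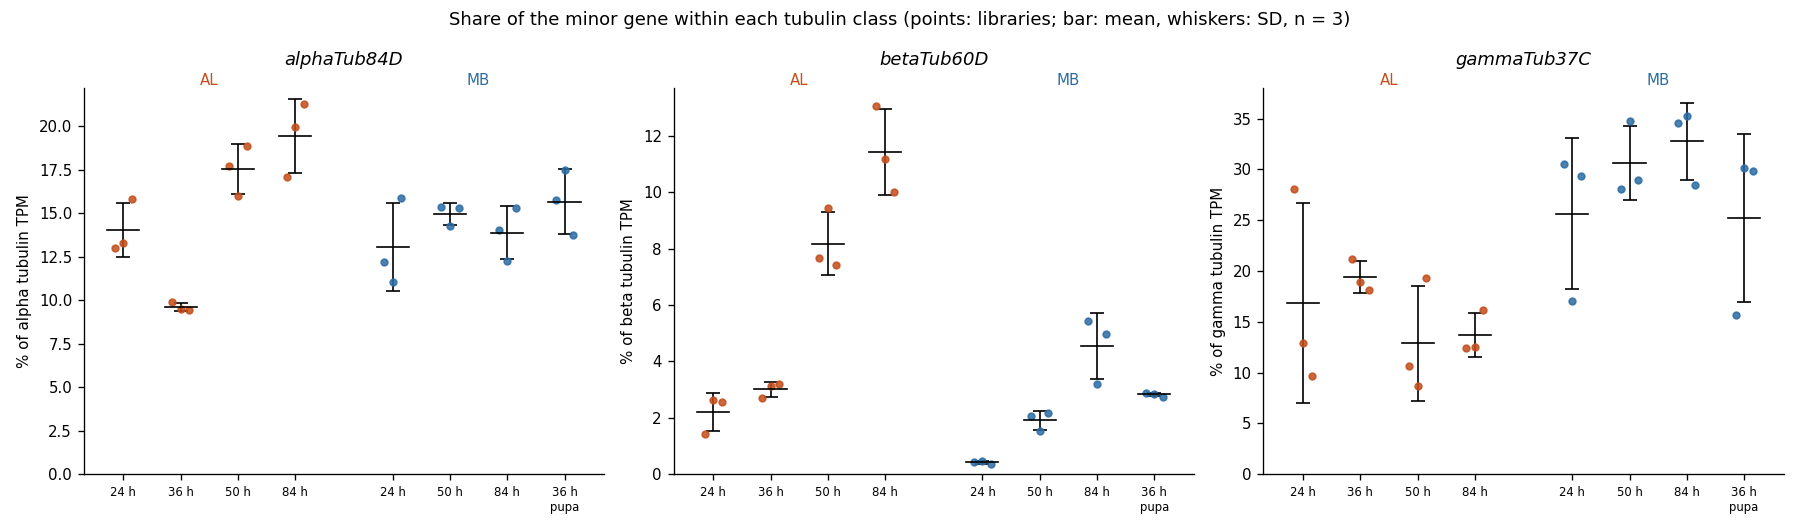
Percentage of alphaTub84D, betaTub60D and gammaTub37C in the TPM of their class against group, with points for libraries, bars for group means and whiskers for SD (n = 3). The beta share of betaTub60D reaches 11.4% as a mean in AL at 84 h and 0.428% in MB at 24 h.

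Genes that act with tubulin were described by 4 lists, with counts against the same background. The gamma-tubulin ring complex and augmin list holds 13 genes whose products nucleate microtubules or recruit that complex to the spindle. In MB, 84 h against 24 h, 7 of 13 rose and none fell, against 5.81% of all genes higher and 8.63% lower, with a median log2 fold change of 0.96 against 0.05 over all genes. They included Grip71 (1.38 ± 0.33, adjusted p = 0.0024), Grip75 (1.14 ± 0.29, adjusted p = 0.0036), dgt4 (1.48 ± 0.37, adjusted p = 0.0037) and l(1)dd4 (0.96 ± 0.24, adjusted p = 0.0044). Mean Grip71 was 42.4 ± 12.5 CPM in MB at 84 h, against 16.3 ± 4.45 CPM in MB at 24 h (SD, n = 3). The count was 4 to 7 with single libraries left out and 1 with spike-in and cell number scaling, where the median was 0.71 and 210 of all 10324 genes were called higher and 729 lower.

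In AL, none of these 13 was called by edgeR, DESeq2 or limma, 2 had an unadjusted p under 0.05 by edgeR, and the median was 0.39 against −0.02 over all genes. Values were 1.05 ± 0.45 for dgt2, 0.97 ± 0.42 for dgt3, 0.58 ± 0.32 for wac and 0.47 ± 0.26 for Grip84. With spike-in and cell number scaling 5 of the 13 rose, with a median of 0.95, but so did 1488 of all 10324 genes, against 150 that fell, with a median of 0.59. The interaction called none by edgeR, and 4 had an unadjusted p under 0.05, so a difference between lineages was not shown. Between lineages, Grip75 was higher in AL (0.61 ± 0.16, adjusted p = 0.0042) and dgt3 lower (−0.78 ± 0.24, adjusted p = 0.015), against 11.2% of all genes higher and 10.7% lower. With spike-in and cell number scaling Grip75 lost its call (0.30, adjusted p = 0.38), and none of the 13 was higher and 3 were lower. Of all 10324 genes, that scaling called 237 higher and 1785 lower. Values for wac (−0.43 ± 0.18) and Grip84 (0.35 ± 0.15) were not called.

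The chaperonin and tubulin cofactor list holds 15 genes for the folding of alpha- and beta-tubulin. In AL, 84 h against 24 h, 4 fell and none rose, against 6.7% of all genes lower and 5.67% higher, with a median of −0.22. They were CG8258 (−0.66 ± 0.13, adjusted p = 0.00020), Tcp-1zeta (−0.63 ± 0.14, adjusted p = 0.0020), Cctgamma (−0.56 ± 0.15, adjusted p = 0.010) and CG5525 (−0.44 ± 0.13, adjusted p = 0.015). Mean CG8258 was 405 ± 34.9 CPM in AL at 84 h, against 639 ± 76.3 CPM in AL at 24 h (SD, n = 3). With spike-in and cell number scaling none fell, 2 rose and the median was 0.38, below the 0.59 of all genes. Of all genes, 1488 rose and 150 fell on that scaling. The call of CG5525 was also lost by limma, in the fit to only the groups compared, and without replicate 1 or 3 of AL at 24 h or replicate 1 of AL at 84 h, and the last also removed Cctgamma. In MB, CG7261 rose (0.98 ± 0.26, adjusted p = 0.0074) and CG5525 fell (−0.47 ± 0.13, adjusted p = 0.0073), against 5.81% of all genes higher and 8.63% lower. Cct5 (−0.32 ± 0.14) and Tcp-1eta (−0.31 ± 0.14) were not called there, and CG7261 lost its call without replicate 3 of MB at 24 h or replicate 2 of MB at 84 h. With spike-in and cell number scaling both CG7261 (0.75, adjusted p = 0.19) and CG5525 (−0.70, adjusted p = 0.13) lost their calls in MB, and limma lost that of CG5525 (−0.25, adjusted p = 0.23).

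Between lineages, 6 of these 15 were higher in AL and none lower, against 11.2% of all genes higher and 10.7% lower, with a median of 0.23 against −0.02. The 4 with the smallest adjusted p were CG5525 (0.45 ± 0.07, adjusted p = 5.6e-06), Tcp-1zeta (0.38 ± 0.08, adjusted p = 0.00056), CG7033 (0.37 ± 0.08, adjusted p = 0.00068) and Cct5 (0.27 ± 0.08, adjusted p = 0.011). On spike-in and cell number scaling none was called and the median was −0.08, against −0.33 over all genes. Of all genes, 237 were higher and 1785 lower on that scaling.

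Of 16 microtubule-associated and end-binding proteins, 2 rose and 5 fell in AL and 4 rose and 5 fell in MB, 84 h against 24 h. Of all genes, 5.67% rose and 6.7% fell in AL, and 5.81% rose and 8.63% fell in MB. The spindle-pole gene asp rose in AL (1.30 ± 0.14, adjusted p = 1.9e-09) and MB (2.06 ± 0.14, adjusted p = 5.8e-15). In AL, mars rose (0.98 ± 0.18, adjusted p = 0.00013), shot, the spectraplakin that links actin and microtubules, fell (−1.03 ± 0.12, adjusted p = 2.4e-08) and ens, a cofactor of kinesin-1, fell (−0.72 ± 0.14, adjusted p = 0.00015). In MB, Map205 rose (0.70 ± 0.12, adjusted p = 3.6e-05), whereas chb, a CLASP protein at growing plus ends (−1.66 ± 0.20, adjusted p = 3.6e-07), and ens (−0.76 ± 0.14, adjusted p = 4.8e-05) fell. In MB, asp averaged 769 ± 57.9 CPM at 84 h, against 184 ± 47.5 CPM at 24 h (SD, n = 3). In the pupa against MB at 84 h, 1 of the 16 rose and 2 fell, against 0.726% of all genes higher and 1.88% lower, and none fell with spike-in and cell number scaling. With spike-in and cell number scaling, shot and ens were no longer called in AL, nor Map205 in MB, and the counts became 3 up and 1 down in AL and 1 up and 4 down in MB.

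Between lineages, 6 of the 16 were higher and 2 lower in AL, against 11.2% and 10.7% of all genes. Map205 (0.78 ± 0.07, adjusted p = 4.1e-12), shot (0.62 ± 0.07, adjusted p = 2.9e-09) and stai, the stathmin that binds free tubulin (1.07 ± 0.21, adjusted p = 0.00012), were higher, and chb was lower (−0.68 ± 0.11, adjusted p = 3.2e-05). The spike-in scaling left 2 higher and 2 lower, against 237 of all genes higher and 1785 lower, and removed the call of shot.

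Of 10 genes for microtubule severing and tubulin modification, kat-60L1 rose (0.82 ± 0.27, adjusted p = 0.035) and CG3967 fell (−0.82 ± 0.24, adjusted p = 0.015) in AL, each lost with some single libraries left out: kat-60L1 without replicate 1 or 3 of AL at 24 h or replicate 3 at 84 h, CG3967 without replicate 1 or 2 at 24 h or replicate 2 at 84 h. CG3967 also lost it by limma (−0.70) and with spike-in and cell number scaling (−0.21), and kat-60L1 in the fit to only the groups compared (0.85). Of all genes, 5.67% rose and 6.7% fell in AL. Sirt2 (3.25 ± 1.56) and NnaD (−0.79 ± 0.48) were not called. In MB, CG3326 rose (2.76 ± 0.68, adjusted p = 0.0031), with 11.0 ± 4.61 CPM in MB at 84 h, against 1.56 ± 1.19 CPM in MB at 24 h (SD, n = 3). Of all genes, 5.81% rose in MB. Kat60 (−0.49 ± 0.19), the deacetylase gene HDAC6 (0.86 ± 0.35) and kat-60L1 (0.55 ± 0.27) were not called, though DESeq2 called HDAC6 (adjusted p = 0.042) and limma kat-60L1 (adjusted p = 0.038). Between lineages, HDAC6 (0.60 ± 0.20, adjusted p = 0.028) and TTLL3B (2.30 ± 0.86, adjusted p = 0.049) were higher in AL, and kat-60L1 (−0.81 ± 0.16, adjusted p = 9.0e-05) and NnaD (−1.15 ± 0.27, adjusted p = 0.0013) lower. TTLL3B lost its call in 9 and HDAC6 in 6 of 18 fits that left out a library, and both lost it by limma and with spike-in and cell number scaling. TTLL3B also lost it in the fit to only the groups compared (adjusted p = 0.055).

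**Figure D4:**
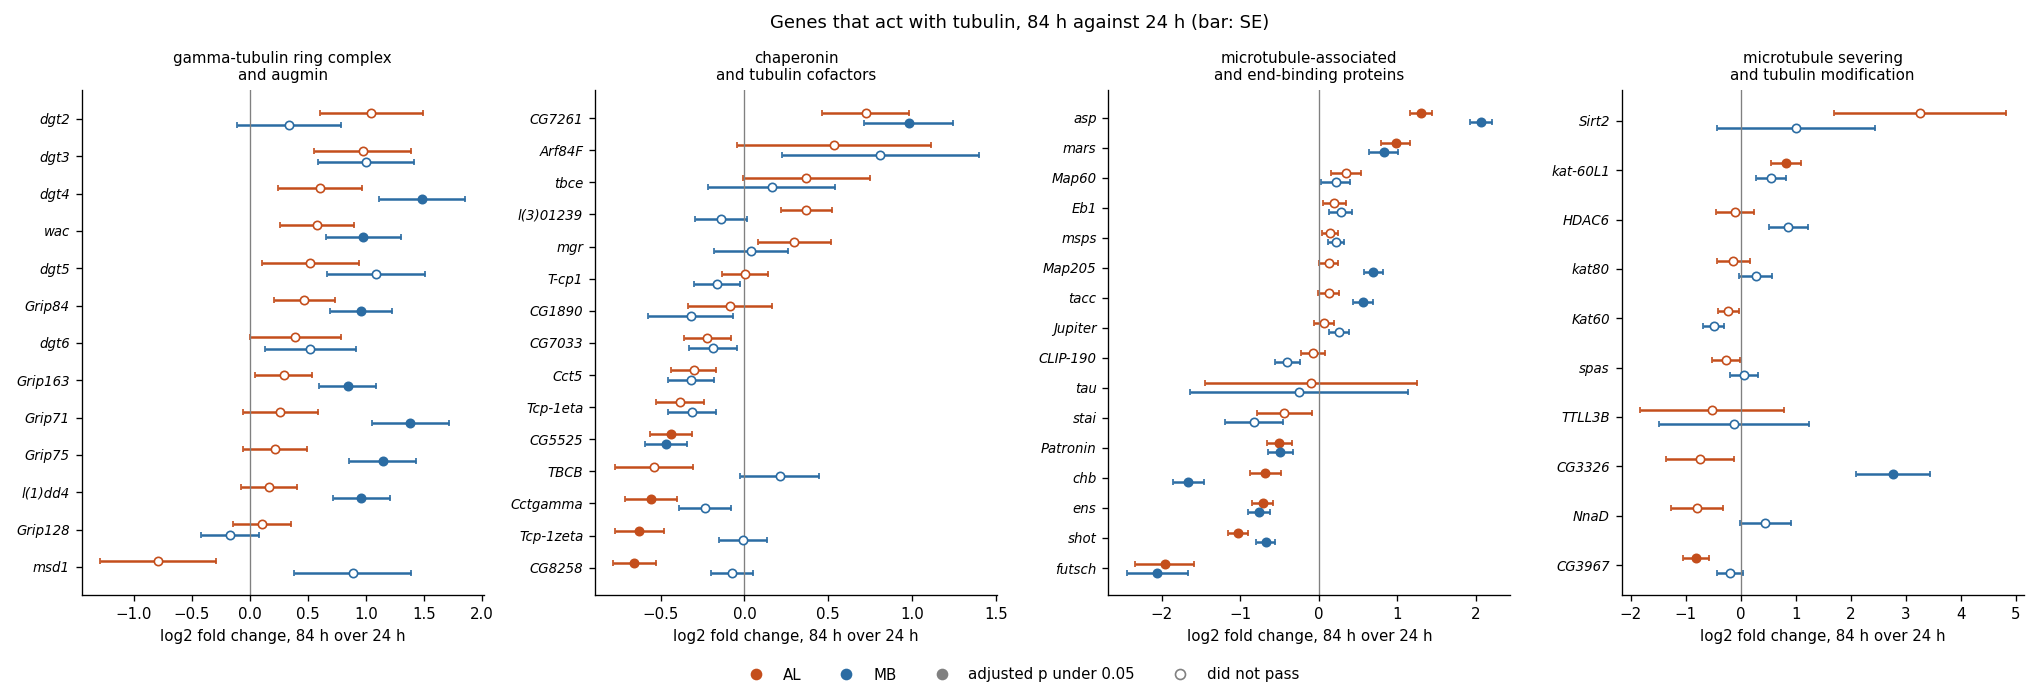
Log2 fold changes, 84 h against 24 h, of the genes in 4 lists that act with tubulin, with SE as bars, for AL and MB, and filled points for an adjusted p under 0.05. In the gamma-tubulin ring complex and augmin panel 7 MB points and no AL point are filled.

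As a description, the genes whose group means followed those of the leading gene of each class most closely were ranked by Pearson correlation of mean log2 CPM over the 8 groups, which share libraries and depth. For alphaTub84B they included Pros54 (r = 0.966) and rg (r = 0.954). For betaTub56D they were CG12162 (r = 0.969), CG7079 (r = 0.948) and CG4169 (r = 0.939). For gammaTub23C they were CG17328 (r = 0.989), CG30383 (r = 0.977) and BEAF-32 (r = 0.970). They are the extremes of 10324 genes.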

How the data were processed

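The authors deposited raw read counts per gene and a TPM table for 24 libraries. Per the submitters' processing notes, the tools were STAR 2.4.0i, Bowtie2 2.1.0, HTSeq 0.6.1p1, cutadapt 1.7.1 and CASAVA, and the builds dm3 and mm10. The sources used here state neither their roles nor the strand setting nor how reads matching several genes were handled, and the row for such reads sums to 0. Per the labels' protocols, amplification was by NuGEN Ovation V2 and ERCC spike-in RNA was added. The deposited TPM values equal count over 1 length per gene, rescaled, within 0.146% for 852 genes with at least 500 counts. Identical cell numbers are labelled for the AL groups of 24 and 84 h, and the spike-in scaling uses them.

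From the counts, edgeR 4.0.16 (TMM, filterByExpr, robust quasi-likelihood, 8 group means, common biological coefficient of variation 0.471) in R 4.3.3 tested 10324 genes. Rows with no gene (no feature, 6.88% to 11.6%; ambiguous, 1.09% to 1.39%; 1 row with no name) stayed out. Alternatives were DESeq2 1.42.0, limma 3.58.1 on log2(TPM + 1), scaling by spike-in total times cell number, no filter, a fit to only the groups compared, a replicate block, each library left out, and alphaTub84B and alphaTub84D summed. Replicates of a group differed beyond sampling noise in all 24 pairs. Replicate numbers did not pair libraries: same-number correlations of deviations were −0.092 to 0.069. Class shares of TPM were compared by exact permutation tests, a measure added after the values were seen. With 3 libraries against 3, such an exact permutation test cannot go below p = 0.10. The fitting code was tested on simulated data.

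All 10 members were named in every comparison. From each list, up to 4 genes with the smallest adjusted p in each 84 h against 24 h comparison and between lineages were named, plus 3 most alike genes per leading member, of which 1 is not reported here. Members, lists and markers were chosen with earlier results of these data known.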

Additional observations from a re-analysis of the deposited data

How the results depend on the processing

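Calls of betaTub60D between 84 and 24 h in both lineages, between lineages and over ages held under every alternative run, as did those of gammaTub23C in AL. No alternative changed a call of alphaTub67C, betaTub85D or betaTub97EF, which were never called; sign changes of uncalled values were not counted. The largest shifts came with spike-in and cell number scaling. It gave 6 tubulin genes called over MB ages (1 in the analysis reported), 4 for AL at 84 against 24 h (2), 1 for MB at 84 against 24 h (3), 0 for the pupa (1), 6 between lineages at 24 h (2) and 1 at 50 h (5). Over all genes it gave 3866 calls over MB ages (1829), 939 for MB at 84 against 24 h (1491), 100 for the pupa (269), 4089 (1120), 710 (1170) and 335 (792) between lineages at 24, 50 and 84 h, and 1079 for the interaction (486). For AL at 84 against 24 h it called 1488 of all genes higher and 150 lower (585 and 692). Its sign changes among called values were betaTub56D at 50 h (0.012), Cctgamma (0.045) and CG5525 (0.15) in AL at 84 against 24 h, and Cct5 between lineages (−0.058). Over MB ages, tubulin calls were 3 with DESeq2, 2 without the filter, 4 with limma and 3 with only the groups compared. The all-gene counts for these are not reported here. Limma gave 5 for MB at 84 against 24 h, where it called 1154 of all genes higher and 566 lower (600 and 891 in the analysis reported). Only the groups compared gave 1 between lineages at 24 h, with 401 of all genes higher and 484 lower (490 and 630). The interaction gave 1 with DESeq2, with 357 of all genes higher and 323 lower. Without the filter it gave 1 too, with 384 higher and 285 lower (302 and 184 in the analysis reported). The cause of these shifts was not tested.

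With single libraries left out, tubulin calls ranged from 4 to 4 over AL ages, 1 to 2 over MB ages, 2 to 3 for AL and 1 to 3 for MB at 84 against 24 h, 0 to 1 for the pupa, 3 to 5 between lineages, 1 to 3 at 24 h, 3 to 5 at 50 h, 3 to 3 at 84 h and 0 to 1 for the interaction. All-gene calls ranged from 1321 to 1594, 1544 to 1789, 933 to 1226, 1086 to 1271, 162 to 261, 2048 to 2370, 833 to 1102, 762 to 964, 515 to 711 and 348 to 498 in the same order. With the replicate number as a block, tubulin calls stayed at 4 over AL ages and 1 over MB ages, and among all genes named only TTLL3B lost a call (2.26 between lineages). The median same-number correlation was 0.0025, with 9 of 24 libraries correlating best with their own number. Shares computed from counts in place of TPM, chosen after seeing the data, moved the betaTub60D differences most (11.9 points for AL and 5.47 for MB at 84 minus 24 h). Depth limits betaTub85D, betaTub97EF and alphaTub85E, whose libraries often hold few counts.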
